A study of Mus musculus with 2 samples.

Results

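The genes described here are Stat3, Stat5a, Stat5b and Stat6, the inhibitors Socs1, Socs2, Socs3 and Cish, the kinase gene Pim1 and the receptor gene Il6st. These 10 genes were taken by symbol from the 25509 genes of the deposited count table, and each of the 10 reached the minimum of 10 counts in a library. The data are 2 mRNA libraries of mouse (C57BL/6) soft-tissue sarcoma cells. The cells are mesenchymal stem cells with p53 knockout and Ccne1 overexpression, which were grown as subcutaneous tumors, seeded in the lungs of further recipients and taken back out of the lung foci. They then received either a hairpin against the circular RNA circCsnk1g3 (shcircCsnk1g3) or the control hairpin (shCTR), so that both libraries carry the p53 deletion and the Ccne1 transgene. The libraries were made from poly(A) RNA, which leaves the circRNA itself unmeasured, and neither the hairpin design used nor whether the cells were a clone is given in the labels. Each group is a single library. No test between groups was possible, and no value below has a replicate check.

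The STAT proteins are transcription factors that wait in the cytoplasm until a cytokine receptor is engaged. A JAK kinase bound to the receptor then phosphorylates them, and they pair up, enter the nucleus and switch on target genes. STAT3 is the usual messenger of IL-6 family cytokines, which signal through gp130, the product of Il6st. The pair STAT5A and STAT5B answers growth hormone, prolactin and several interleukins, and STAT6 answers IL-4 and IL-13. Among the genes they switch on are Socs1, Socs2, Socs3 and Cish, whose proteins bind the receptor or the JAK kinase and end the signal, and Pim1, which encodes a kinase that favors cell survival. The transcript level of these feedback genes is therefore often read as a sign of STAT activity, whereas STAT activity itself lies in phosphorylation and was not measured by these libraries. The study also examined STAT proteins on protein arrays. It reports more STAT3 and STAT5 protein in control cells than in circCsnk1g3-silenced cells. Protein levels were not measured by these libraries. The comparison here asks whether the transcripts differed upon silencing of circCsnk1g3.

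The shcircCsnk1g3 library held 38792143 counts and the shCTR library 42709996. Pairs of counts or CPM values below give shcircCsnk1g3 first and shCTR second, unless a library is named beside each value. Log2 fold changes are shcircCsnk1g3 against shCTR after TMM scaling, with a prior count of 2. The range behind each one is a 95% interval, from the exact binomial (Clopper-Pearson) bounds of a library's share of the gene's counts in both, and it reflects the counting error of these libraries and nothing else. Culture-to-culture variation is outside it. At these depths even small differences leave the interval: it lay above 0 for 26.9% of the 12941 genes tested and below 0 for 28.2%. A change of at least 1.5-fold was therefore used as the call. It was reached in the higher direction by 5.39% of the genes tested and in the lower direction by 6.31%, and among the 10662 genes whose counts in both libraries add up to 200 or more by 1.99% and 3.14%. The middle 90% of those 10662 genes lay between -0.46 and 0.40 on the log2 scale.

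In the circCsnk1g3-silenced cells, the transcripts of Stat3, Stat6, Stat5b, Socs3 and Il6st were within 0.20 of the control on the log2 scale. Socs2 and Cish were higher, both from low counts, and Socs1, Stat5a and Pim1 were lower by less than 1.5-fold. Of the 10 genes, 7 had a log2 fold change above 0 and 3 below, with a median of 0.11, where the median of all genes tested was 0.00. Past the 1.5-fold call were 2 of the 10 in the higher direction and 0 in the lower. The shares over all genes tested were 5.39% and 6.31%, and they are larger among genes with few counts, such as these 2. At a looser threshold of 0.32 on the log2 scale, which 12.3% of all genes passed upward and 13.1% downward, 2 of the 10 were higher and 2 lower. The counting interval lay above 0 for 6 of the 10 genes, below 0 for 3, and held 0 for 1. Most members differed between the libraries by more than counting error, as did more than 1 in 2 of all genes.

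**Figure D1:**
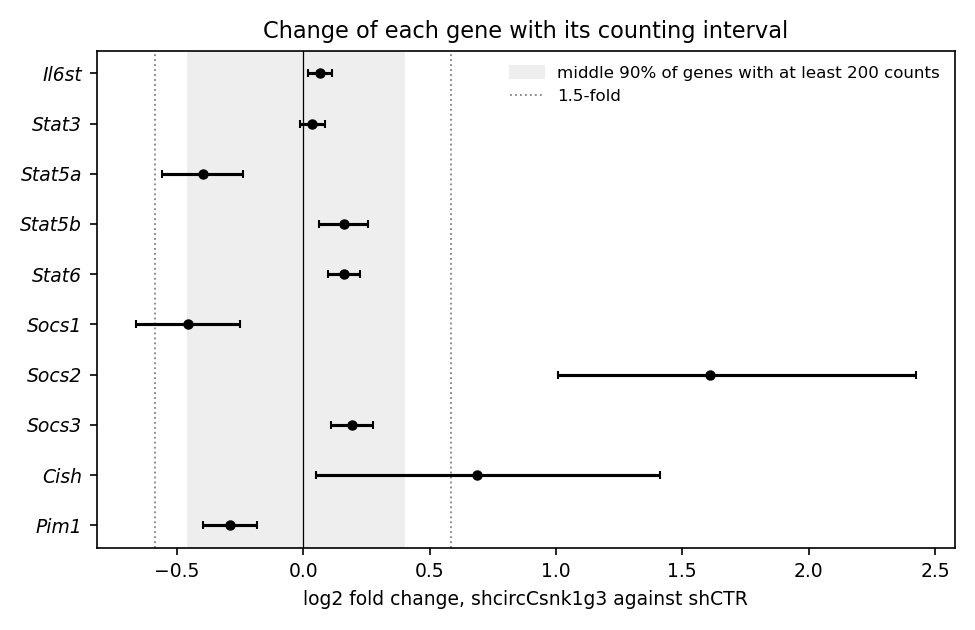
Log2 fold change of each of the 10 genes (points) with its 95% exact counting interval (bars), shcircCsnk1g3 against shCTR, 1 library each. The grey band is the middle 90% of genes with at least 200 summed counts (-0.46 to 0.40) and dotted lines mark 1.5-fold. Socs2 at 1.61 and Cish at 0.69 lie past the dotted line, and Stat5a at -0.40 and Socs1 at -0.45 lie near the lower edge of the band.

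The levels of these genes spanned a wide range. To compare genes with each other, counts were divided by the annotated exon length and scaled to a common total (TPM). That length joins the exons of all annotated isoforms of a gene. Which isoforms the cells expressed was not measured, so the order of genes close in level depends on this choice of length. In the control library the order from high to low was Stat6 (65.4 TPM), Socs3 (58.9), Stat3 (54.4), Il6st (46.7), Pim1 (36.7), Stat5b (22.7), Socs1 (12.4), Stat5a (8.09), Cish (0.372) and Socs2 (0.188). In the shcircCsnk1g3 library the order was the same, with Stat6 at 75.2 TPM, Socs3 at 69.1, Stat3 at 57.3, Il6st at 50.3, Pim1 at 30.8, Stat5b at 26.1, Socs1 at 9.26, Stat5a at 6.30, Cish at 0.631 and Socs2 at 0.624. The 8 genes from Stat6 to Stat5a each had over 200 summed counts, whereas Cish and Socs2 were barely detected in the control cells. With these lengths taken as exact, neighbors in this order differed beyond counting error in both libraries with a single exception. Cish and Socs2 could not be told apart in the shcircCsnk1g3 library, where their ratio per length was 1.01 (0.688 to 1.47), whereas in the control library Cish was 1.98 times Socs2 (1.13 to 3.51). The step from Stat5a down to Cish was the widest, at 21.7 times (15.3 to 32.0) in the control library and 9.99 times (7.45 to 13.7) in the other.

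**Figure D2:**
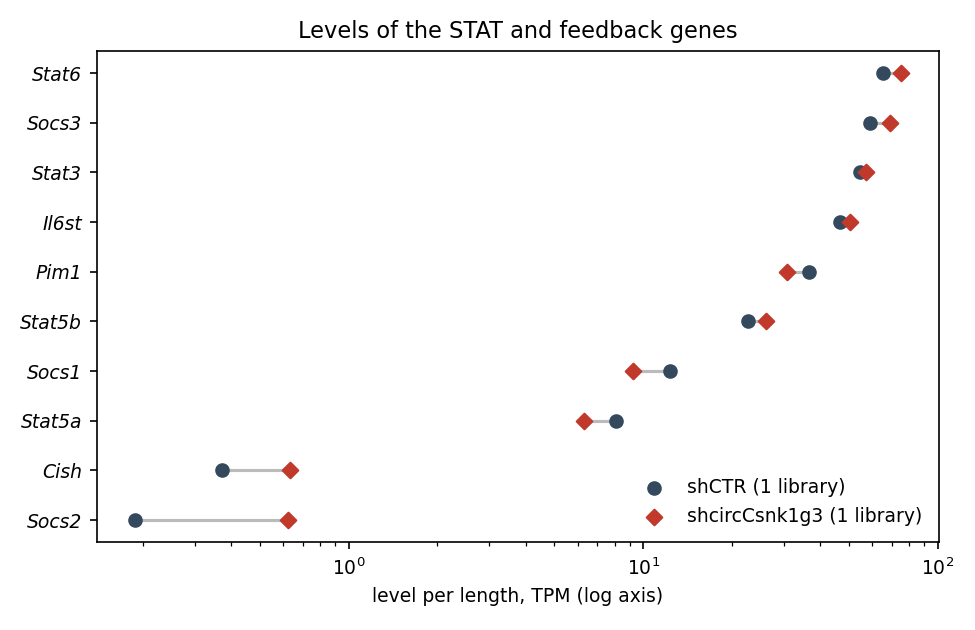
Level per exon length (TPM, log axis) of each gene in the shCTR library (circles) and the shcircCsnk1g3 library (diamonds). The order of the genes is the same in both libraries, and the gap between the symbols is widest for Socs2 (0.188 TPM in shCTR and 0.624 in shcircCsnk1g3) and Cish (0.372 and 0.631 TPM).

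Stat3 (ENSMUSG00000004040, chr11:100885098-100939540, minus strand, GRCm38) had 6614 and 6948 counts. After scaling these were 169 and 164 CPM, a log2 fold change of 0.04 (-0.01 to 0.09). Stat3 was thus the member whose interval held 0. With total counts in place of TMM scaling its value was 0.07 and 7 members, in place of 6, had an interval above 0. Il6st (ENSMUSG00000021756, chr13:112464070-112510086, plus strand), the shared signalling chain of the IL-6 family receptors, stood beside it in level and in change. Its counts were 6754 and 6950, and it differed by 0.07 on the log2 scale (0.02 to 0.11).

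Stat6 (ENSMUSG00000002147, chr10:127642986-127660957, plus strand) had 4005 and 3858 counts and differed by 0.16 on the log2 scale (0.10 to 0.23). It was the most abundant of the 4 STAT members per length in both libraries. Stat3 had more counts, 6614 and 6948, over an annotated exon length of 9527 bases, against 4402 for Stat6. Their order thus rests on the length used. The last exon of Stat6 meets that of Nab2 on the opposite strand over 40 bases, and Nab2 had 1755 and 1758 counts.

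The Stat5 genes lie next to Stat3 on chromosome 11 and went in opposite directions. Stat5b (ENSMUSG00000020919, chr11:100780731-100850724, minus strand) had 1750 and 1687 counts, which gave a log2 fold change of 0.16 (0.06 to 0.26). Stat5a (ENSMUSG00000004043, chr11:100859351-100885169, plus strand) lies 8626 bases beyond the start of Stat5b and is read the other way. It had 544 and 773 counts, or 13.9 and 18.3 CPM, a log2 fold change of -0.40 (-0.56 to -0.24). The control library thus had 1.32 times the Stat5a level of the silenced cells, while Stat5b was slightly higher in the silenced cells.

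Summed, the pair hardly differed between the libraries. Stat5a and Stat5b together had 2294 and 2460 counts, a log2 ratio of 0.01 (-0.08 to 0.09). Stat5a made up 31.4% of these counts in the control library (95% Clopper-Pearson interval 29.6 to 33.3) and 23.7% in the silenced cells (22.0 to 25.5). The intervals of the shares did not overlap, but they cover counting error only. Over all genes tested, 26.9% had a counting interval above 0 and 28.2% below. Stat5a and Stat5b each lay within the middle 90% of genes with 200 or more summed counts (-0.46 to 0.40). Per exon length the shares were 26.2% and 19.4%. These genes are close paralogs, and 8.21% of the 50-base words in the annotated Stat5a transcripts also occur in Stat5b, so part of the division between them rests on how RSEM assigned shared reads. The last exon of Stat5a also meets that of Stat3 on the other strand over 72 bases, 1.01% of the Stat5a exon length. The kit keeps strand, but whether the counting used it is not stated.

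**Figure D3:**
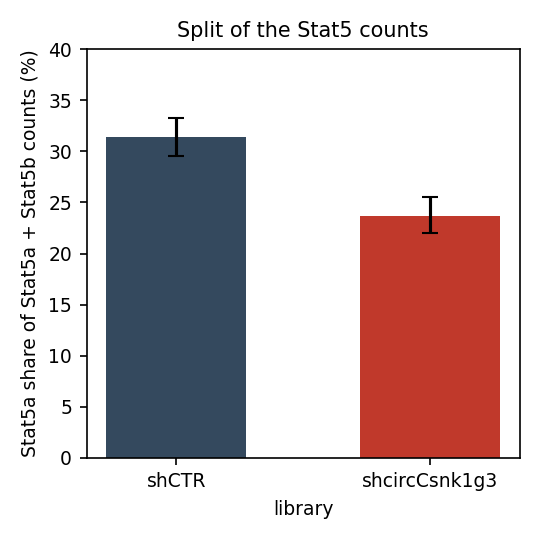
Share of the summed Stat5a and Stat5b counts that fell to Stat5a (percent, bars) in the shCTR and shcircCsnk1g3 libraries, with 95% Clopper-Pearson intervals. The bar is 31.4% for shCTR and 23.7% for shcircCsnk1g3, and the intervals, which cover counting error only, do not overlap.

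Stat2 gave a contrast within the family. It encodes a STAT that carries interferon signals, had 1290 and 756 counts and passed the 1.5-fold call at 0.88 (0.75 to 1.01). Among all genes with 200 or more summed counts, 1.99% were at least 1.5-fold higher. The Stat2 interval overlapped that of none of the 4 STAT members. These intervals cover counting error only, and over all genes tested they lay above 0 for 26.9% and below 0 for 28.2%. Stat4 had no count in either library. Of the summed counts of Stat2, Stat3, Stat5a, Stat5b and Stat6, Stat3 accounted for 49.6% (48.7 to 50.4) in the control library and 46.6% (45.7 to 47.4) in the silenced cells. Stat6 held a share of 27.5% in the control (26.8 to 28.3) and 28.2% (27.5 to 28.9) upon silencing. Stat5a held 5.51% in the control and 3.83% upon silencing, and Stat2 held 5.39% and 9.08%.

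**Figure D4:**
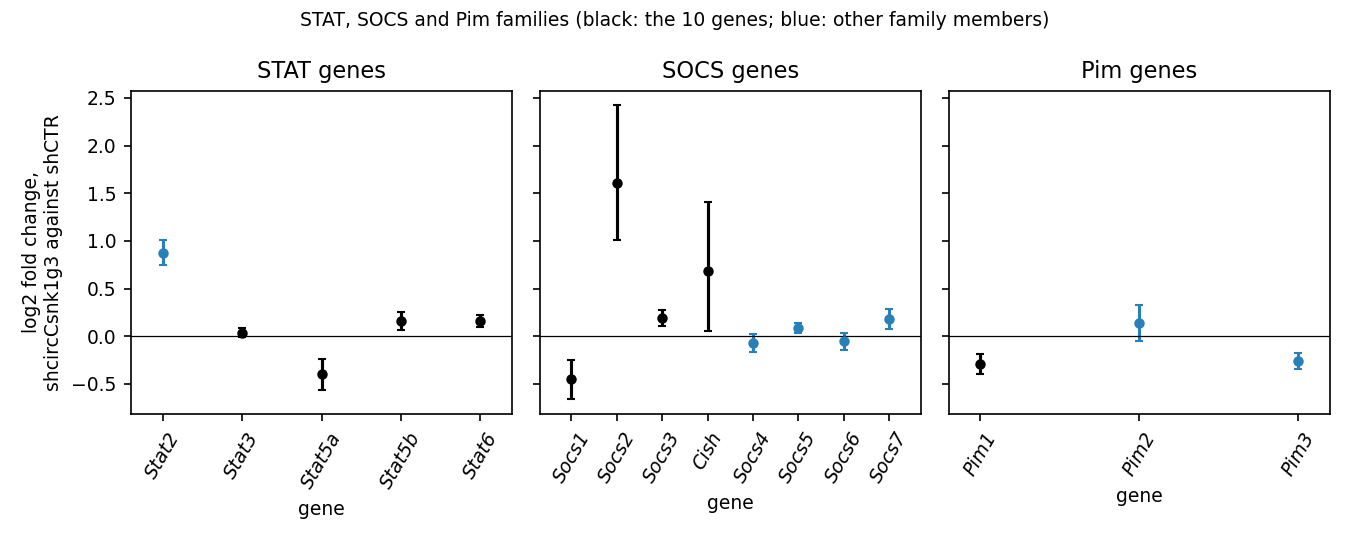
Log2 fold change (points) with 95% exact counting intervals (bars) for genes of the STAT, SOCS and Pim families, shcircCsnk1g3 against shCTR. Black marks the 10 genes and blue other family members. Stat2 (0.88) stands above Stat3, Stat5a, Stat5b and Stat6, and Socs4 to Socs7 lie between -0.08 and 0.18.

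The SOCS genes differed from each other in direction. Socs3 (ENSMUSG00000053113, chr11:117966079-117970047, minus strand), the feedback inhibitor of gp130 receptors and the classical STAT3 target among them, had 2419 and 2280 counts. Its log2 fold change was 0.19 (0.11 to 0.28), well short of 1.5-fold. Socs1 (ENSMUSG00000038037, chr16:10782240-10785536, minus strand) encodes an inhibitor of the JAK kinases that limits interferon signalling. It had 326 and 482 counts, or 8.31 and 11.4 CPM, a log2 fold change of -0.45 (-0.66 to -0.25). Its level in the control library was thus 1.37 times that in the silenced cells, in the direction opposite to Stat2.

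Socs2 and Cish are best known as targets of STAT5 downstream of growth hormone and related cytokines. Socs2 (ENSMUSG00000020027, chr10:95385362-95417180, minus strand) had 72 and 24 counts, or 1.84 and 0.568 CPM. This was 3.23-fold as a plain ratio and 1.61 (1.01 to 2.42) on the log2 scale with the prior count, the widest change of the 10 genes. Cish (ENSMUSG00000032578, chr9:107296026-107302784, plus strand) had 49 and 32 counts and a log2 fold change of 0.69 (0.05 to 1.41). Raising the prior count to 10 put Cish at 0.58, just under the 1.5-fold call. Its interval nearly reached 0, so that the size of the Cish difference is poorly fixed at this depth. Both genes fall under 200 summed counts, where a change of 1.5-fold is more common among all genes than at higher counts. Of 698 tested genes at least 1.5-fold higher, 212 had 200 or more summed counts, as did 10662 of all 12941 tested. The shares of 5.39% and 1.99% are thus too low a yardstick for Socs2 and Cish. They stay far below the other members in both libraries. The opposite-strand genes Gm17040 and Gm17041, which share 261 and 479 exon bases with Cish, were not analysed here.

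As a sum of counts, the whole SOCS family was nearly level, a value that members with few counts hardly affect. The 7 Socs genes and Cish together had 13899 and 14361 counts, a log2 ratio of 0.06 (0.03 to 0.09). Socs5, whose product restrains EGF receptor and IL-4 signalling, held the most of these counts, 41.1% in the control and 41.7% in the silenced cells. With the control again first, Socs3 held 15.9% (15.3 to 16.5) and 17.4% (16.8 to 18.0), Socs1 3.36% (3.07 to 3.66) and 2.35% (2.10 to 2.61), Socs2 0.167% (0.107 to 0.249) and 0.518% (0.406 to 0.652), and Cish 0.223% (0.152 to 0.314) and 0.353% (0.261 to 0.466). Of the 4 other family members none passed 1.5-fold: Socs4 was at -0.08, Socs5 at 0.08, Socs6 at -0.05 and Socs7 at 0.18.

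Pim1 (ENSMUSG00000024014, chr17:29490753-29496112, plus strand) had 1255 and 1652 counts, 32.0 and 39.1 CPM. Its log2 fold change of -0.29 (-0.40 to -0.18) did not reach 1.5-fold. The related kinase gene Pim3 lay beside it, with 2204 and 2843 counts and -0.26 (-0.34 to -0.18), and Pim2 had 458 and 449 counts and 0.14 (-0.05 to 0.33). The antisense gene Gm26885 shares 488 exon bases with Pim1 and had 2 counts and 1 count. The direct feedback genes with substantial counts, Socs3, Socs1 and Pim1, thus differed in direction. Added together, they had 4000 and 4414 counts, a log2 ratio of -0.03 (-0.10 to 0.03).

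The promoters of the members were examined for the palindromic STAT binding motif TTCNNNGAA, for the wider spacing TTCNNNNGAA that STAT6 prefers, and for GAAANNGAAA, the core of the interferon-stimulated response element. Windows from 250 bases before to 50 bases after the RefSeq start were available for 9 of the 10 genes, all but Socs2, and were searched on both strands (GRCm38.p6). The motif TTCNNNGAA occurs in 8.3% of all 32851 windows, TTCNNNNGAA in 6.95% and GAAANNGAAA in 3.44%. These letters were found in 3 members. The stretches are shown because they belong to feedback genes that differed in direction between the libraries, with the matches in capitals.

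Cish: agttTTCCTGGAAagTTCTTGGAAatctgt
Socs3: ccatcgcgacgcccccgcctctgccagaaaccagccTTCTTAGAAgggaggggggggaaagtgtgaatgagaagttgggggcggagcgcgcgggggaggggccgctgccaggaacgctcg
Socs1: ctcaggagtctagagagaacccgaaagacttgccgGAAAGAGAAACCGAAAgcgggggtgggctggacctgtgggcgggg
Stat2: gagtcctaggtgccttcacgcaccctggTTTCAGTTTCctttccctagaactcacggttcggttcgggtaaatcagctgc

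The Cish stretch (chr9:107296655-107296684, plus strand) holds 2 copies of TTCNNNGAA, the first beginning at the RefSeq start itself. The Socs3 stretch (chr11:117969437-117969556, minus strand) holds a single copy, which begins at base -154 from the start. In the Socs1 stretch (chr16:10785575-10785654, minus strand), 2 overlapping copies of GAAANNGAAA begin at bases -83 and -77. Stat2, printed for comparison, has the same motif on its other strand at base -222 (chr10:128270248-128270327, plus strand), and a copy of TTCNNNNGAA at base -210, left in lower case. Socs1 and Stat2 share this motif and lay on opposite sides of 0. Socs3 and Cish share TTCNNNGAA and were both above 0, by different amounts. Of the members in whose windows no motif was found, Stat5b, Stat6 and Il6st were above 0 and Stat5a and Pim1 below, while the Stat3 interval held 0. Whether a motif bears on these values was not tested. None of the motifs was found in the windows of Stat3, Stat5a, Stat5b, Stat6, Pim1 or Il6st, which says only that these letters are not in these windows. Among the further genes searched, Stat2 alone had a match, and the windows of Socs4, Pim2, Pim3, Osmr, Il4ra and Il6ra had none. A match is a description of sequence and does not show binding.

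The remaining genes of the pathway were compared by lists. Upstream of the STATs, the JAK kinase genes were near the control: Jak1 at -0.10, Jak2 at 0.24, Jak3 at 0.23 and Tyk2 at 0.16, none past 1.5-fold. Of 28 genes for ligands of STAT3, STAT5 and STAT6, 12 had no count in either library, which leaves room for a level of up to 0.0765 and 0.0710 CPM (3 counts). Another 12 were tested, with a median of -0.28, and only 3 of the 12 had 200 or more summed counts. The ligand gene with the most counts was Lif, at 2348 and 2678 counts and -0.08 (-0.16 to -0.0017). Clcf1, another IL-6 family ligand, had 1592 and 2265 counts (-0.40, -0.49 to -0.31), Ctf1 had 163 and 207 (-0.23, -0.54 to 0.07) and Il11 had 71 and 108 (-0.49, -0.95 to -0.05). Il6, Il7, Thpo and Csf3, below the count minimum for naming, were named after their values were seen. Il6 had 70 and 49 counts (0.60, 0.07 to 1.18) and Il7 63 and 15 (2.03, 1.35 to 3.10). Thpo had 10 and 4 (1.08, -0.36 to 3.56) and Csf3 27 and 52 (-0.80, -1.57 to -0.14). They were the 3 ligand genes at least 1.5-fold higher and the 1 lower. Over all genes tested 5.39% and 6.31% were, shares that are larger among genes with few counts.

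Of 32 receptor genes 15 were tested, with a median of -0.21, also with the 1 gene that was at the floor in a library set to its bound. Some of these had few counts and met the minimum through a single library. Among the 9 with 200 or more summed counts the median was 0.10, and 1 was at least 1.5-fold higher and 1 at least 1.5-fold lower, where 1.99% and 3.14% of all genes at such counts were. Il6ra, the IL-6 binding chain that pairs with gp130, was the higher one, with 4635 and 2994 counts and 0.74 (0.67 to 0.80). Osmr, the oncostatin M chain that also pairs with gp130, had 226 and 479 counts and -0.97 (-1.21 to -0.74). Il6st itself was at 0.07, between these partner chains. The leukemia inhibitory factor chain Lifr, a further gp130 partner, had 3459 and 3090 counts and 0.27 (0.20 to 0.34). The IL-4 receptor gene Il4ra, upstream of STAT6, had 1029 and 1492 counts and -0.43 (-0.54 to -0.31), and the growth hormone receptor gene Ghr, upstream of STAT5, had 9432 and 8764 counts and 0.21 (0.17 to 0.26). The erythropoietin receptor gene Epor had 66 and 122 counts and -0.76 (-1.23 to -0.34). The interferon receptor genes were at -0.12 for Ifnar1, 0.15 for Ifnar2, 0.06 for Ifngr1 and -0.04 for Ifngr2.

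Among 11 tested genes for other negative regulators, Usp18, which restrains interferon receptor signalling, was the only gene past 1.5-fold, with 376 and 108 counts and 1.89 (1.59 to 2.23). All 11 had 200 or more summed counts, where 1.99% of all genes were at least 1.5-fold higher. The tyrosine phosphatase gene Ptpn1 had 2104 and 2942 counts and -0.38 (-0.46 to -0.29), and Ptpn2 1612 and 1509 counts and 0.20 (0.10 to 0.31). Ptpn6 was at 0.18 (-0.17 to 0.53), Pias1 at -0.16 (-0.28 to -0.04) and the ubiquitin ligase gene Cbl at -0.05 (-0.12 to 0.02). The genes of the ubiquitin ligase that SOCS proteins recruit were at -0.06 for Tceb2 (elongin B), -0.09 for Tceb1 (elongin C), 0.05 for Cul5 and -0.39 (-0.49 to -0.31) for Rnf7.

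Of 19 tested STAT3 target genes, 11 were above 0 and 8 below, and the median was 0.06. At least 1.5-fold higher were 3 and at least 1.5-fold lower was 1, against 5.39% and 6.31% of all genes tested. These 4 were among the 17 with 200 or more summed counts, where the shares over all genes were 1.99% and 3.14%. The higher ones were Saa3, an acute phase gene (0.90, 0.71 to 1.10), Serpina3n (0.72, 0.33 to 1.14) and Fos (0.70, 0.45 to 0.96), and the lower one was Osmr, which is also on the receptor list. The remaining genes named for this list, Il4ra at -0.43 and the survivin gene Birc5 at -0.23 (-0.28 to -0.17), did not reach 1.5-fold. Of 6 tested STAT5 target genes only the cyclin gene Ccnd2 passed the call, with 3428 and 5790 counts and -0.65 (-0.71 to -0.59), opposite to Socs2 and Cish. Among all genes with 200 or more summed counts, 3.14% were at least 1.5-fold lower. Bcl6 was at 0.25 (0.18 to 0.32), Ghr at 0.21, Id1 at -0.08 (-0.19 to 0.03) and the anti-apoptotic Bcl2l1 at -0.21 (-0.27 to -0.14). Of 16 STAT6 target genes 11 had at most 3 counts in either library and 4 were tested, with none past 1.5-fold and Gata3 at -0.22 (-0.44 to -0.01).

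**Figure D5:**
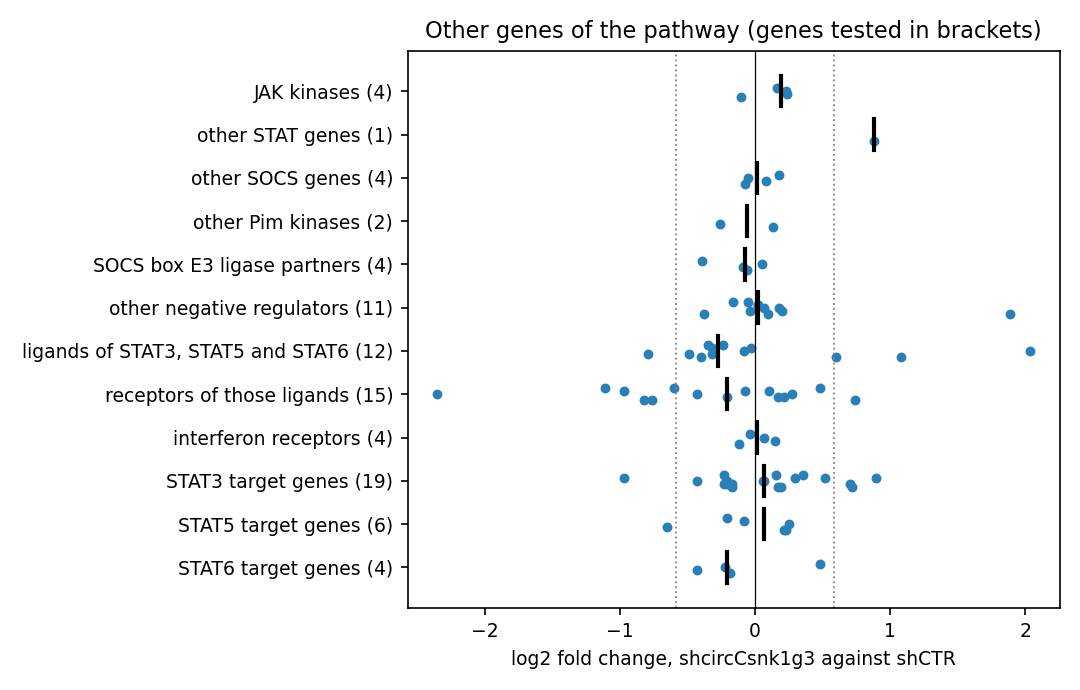
Log2 fold change of the other pathway genes, 1 point per tested gene, by list, with the list median as a black bar and dotted lines at 1.5-fold (shcircCsnk1g3 against shCTR, 1 library each). Medians lie between -0.28 and 0.19 except for Stat2, the only tested gene of the other STAT genes shown, at 0.88, and the points of the ligand and receptor lists, which hold many genes with few counts, are the most scattered.

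The labelled cell type was checked against markers. Of 10 mesenchymal markers 9 were tested, summing to 12269 and 12745 CPM, with Thy1 at 0 counts and 1 count. Of 14 leukocyte markers 11 had at most 3 counts in either library, the pan-leukocyte marker Ptprc had 1 and 0, and the summed level was 2.58 and 4.0 CPM, most of it from Cd68 with 87 and 155 counts. The summed levels of 7 endothelial and 8 lung epithelial markers were under 1 CPM in each library.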

How the data were processed

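The authors aligned the reads of both libraries (TruSeq Stranded mRNA, NovaSeq) to GRCm38 with STAR and deposited RSEM estimated counts per gene as whole numbers, not normalized. The authors also deposited TMM-scaled CPM for 11624 genes, in which each column is the count column times a constant. The GENCODE release is not given in the sources used here. The 92 spike-in rows summed to 0 and were left out. Genes were tested where a library held 10 counts or more. TMM factors were 1.01 for shcircCsnk1g3 and 0.989 for shCTR (edgeR 4.0.16, R 4.3.3). At 100 counts in each library the half-width of the counting interval was 0.41 on the log2 scale. The other steps ran in python 3.11.15. The fold changes and counting intervals were tested on simulated counts that held no culture-to-culture variation. No test between groups was run.

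Positions and exon lengths came from GENCODE M21 (GRCm38), in which 8 of the 10 gene identifiers had the same version, and promoter windows from RefSeq. The members and lists were chosen with earlier results of these data known. Named are the 10 members, all genes of lists of up to 6, and of longer lists the 3 highest and 3 lowest log2 fold changes among genes with 100 counts or more in a library. Cebpd and Spi2 were not analysed here, and 1 further listed gene is not reported here. Alternatives were DESeq2 1.42.0 size factors, total counts, the deposited CPM, and other prior counts, filters and thresholds.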

Additional observations from a re-analysis of the deposited data

How the results depend on the processing

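No paired analysis was possible because each group is a single library, and for the same reason no library could be left out. All 60 values of the 10 genes under the alternatives stayed inside their own counting intervals and kept their sign, with ranges of 1.36 to 1.69 for Socs2, 0.58 to 0.72 for Cish, -0.46 to -0.42 for Socs1, -0.40 to -0.37 for Stat5a and -0.29 to -0.26 for Pim1. The alternatives reuse the same counts with other scaling, filters or prior counts, so this stability carries no information on culture-to-culture variation. The 2 genes past 1.5-fold became 1 with a prior count of 10 and 1 at a threshold of 2-fold, Socs2 in both, and 0 with at least 200 summed counts, a filter that removes Socs2 and Cish by construction. At a threshold of 0.32 on the log2 scale 2 genes, Stat5a and Socs1, counted as lower in place of 0. The Stat5a share per exon length was 19.4% for shcircCsnk1g3 and 26.2% for shCTR. Of 77 list medians, 74 kept their sign and moved by no more than the median half-width of their genes' intervals. With at least 200 summed counts the receptor list went from -0.21 to 0.10 and the STAT5 target list from 0.07 to -0.080, and without a count filter the latter went to 0.22, since these filters change which genes are in the list. Total counts without TMM factors shifted the median of all genes by 0.03. Depth limits Socs2 and Cish the most.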
